A study of Mus musculus with 16 samples.

Results

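The comparison set wild-type mouse embryo fibroblasts (Ark+/+) against fibroblasts that lack Arkadia (Ark-/-), using the libraries of the first set of the experiment: 4 wild-type and 4 Arkadia-null libraries, 8 of the 16 libraries in the series. A library belonged to the comparison if its label placed it in that set, and each wild-type library was matched to the null library of the same time. Both lines were sampled untreated (0 h) and after 1, 4 and 16 h with TGFβ at 2.5 ng/ml, with 1 poly(A)-selected library for each line and time. A further pair of Ark-/- libraries from the second set, at 0 and 1 h, entered only alternative analyses and is given alongside where it helps. The second set holds no wild-type library. The cells were grown in the same serum-containing medium, each genotype is represented by 1 line of embryo fibroblasts, and the labels do not say how many cultures or embryos stand behind them. The 4 times therefore served as repeats: only a difference between the lines that was shared by the times could be tested, the p-values rest on the spread among these 8 libraries alone, and the effect of the Arkadia deletion and that of the line or embryo of origin cannot be told apart.

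Arkadia, encoded by Rnf111, is a nuclear RING-type ubiquitin ligase. It marks the SMAD-dependent repressors SnoN and Ski and the inhibitory SMAD7 for degradation and so amplifies transcription downstream of TGFβ, activin and Nodal. It also recognises chains of the ubiquitin-like protein SUMO. TGFβ acts through a pair of receptor kinases that phosphorylate SMAD2 and SMAD3, which enter the nucleus with SMAD4, and in fibroblasts it is known for inducing extracellular matrix and contractile genes. Embryo fibroblast lines are mixed mesenchymal cells from a whole or eviscerated embryo, and keep a record of the body region they came from in their Hox and other patterning genes.

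The values were FPKM, fragments of a transcript corrected for its length and for the size of the library, so levels of different genes can be set side by side. Their sum was 397019 to 424998 FPKM a library in this set, and the number of reads behind them is unknown. Libraries of a line ranked their genes alike, with Spearman correlations of 0.963 to 0.973 among the wild-type and 0.948 to 0.973 among the null libraries, against 0.877 to 0.884 between the lines at matched times. Rnf111 checked the labels. It stood at 14.6, 15.1, 14.99 and 14.5 FPKM in the wild-type libraries at 0, 1, 4 and 16 h and at 0.155, 0.198, 0.177 and 0.121 FPKM in the null libraries, a difference of 3.76 ± 0.0617 (SE) on the log2(FPKM + 1) scale (adjusted p = 1.18e-05). The groups were far apart, and the null libraries of the second set, at 0.526 and 0.435 FPKM, were low as well. All differences below are wild type minus null on that log2(FPKM + 1) scale, which understates the change of weakly expressed genes, and come from a limma fit with time as a block.

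The lines differed across much of the transcriptome. Of 10976 genes that averaged 1 FPKM or more, 7411 passed an adjusted p of 0.05 (67.5%), 4105 of them higher in wild type (37.4%) and 3306 lower (30.1%). Most differences were small: 3299 of the genes that passed differed by less than 0.5 on the log2 scale, the median absolute difference of all genes tested was 0.383, and for 4422 genes (40.3%) the 95% confidence interval lay within 0.5 of 0. Adding a difference of at least 1 to the rule left 1336 genes (12.2%), of which 499 were higher in wild type (4.55%) and 837 lower (7.63%). At a difference of at least 2, 88 genes were higher and 253 lower. For 1091 of the 1336 genes the 4 time-matched differences spanned less than 1, where the median span of all genes tested was 0.336. The fit favours genes whose 4 differences agree, so this count is partly set by the rule and is no separate sign of steadiness. The 2 lines' libraries did not overlap for 6116 of the genes that passed, which is 55.7% of the genes tested. Genes named below were mostly chosen by the size or p of their difference, so a lack of overlap in them is no further support. Counts of the gene lists below are to be read beside the shares of all genes given here.

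**Figure D1:**
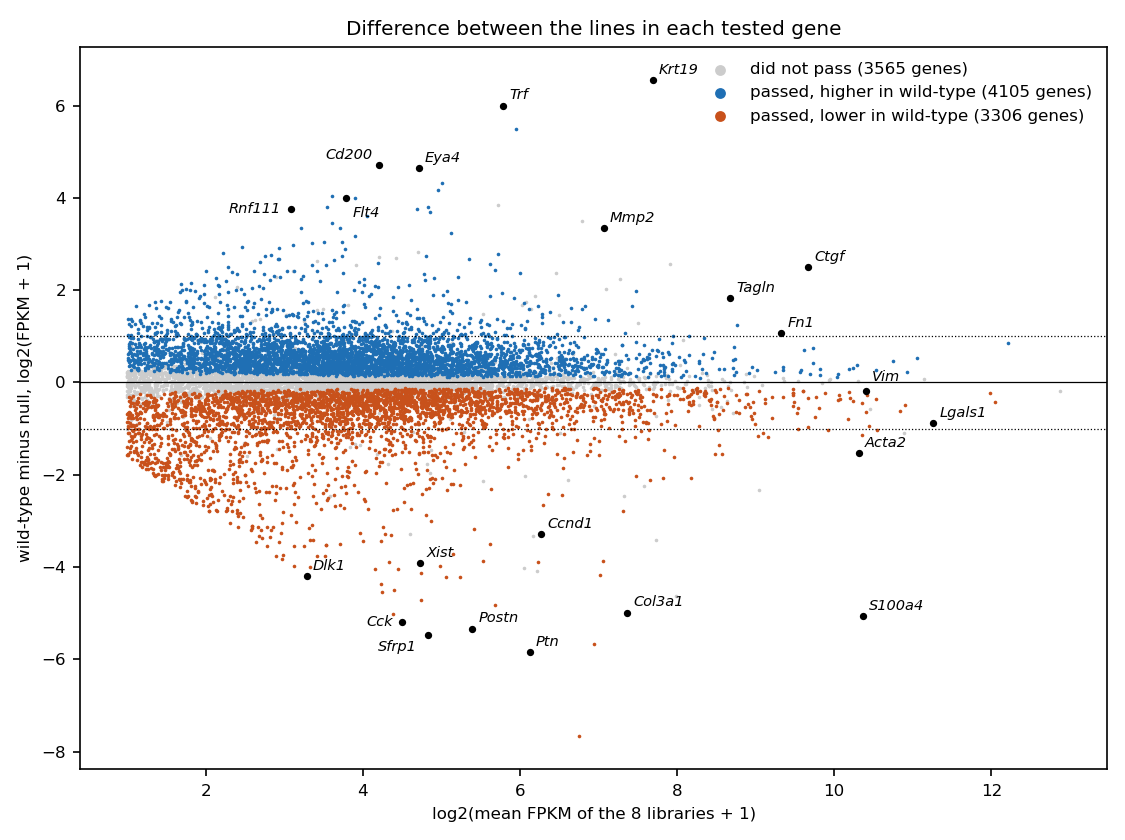
Difference between the lines (wild type minus null, log2(FPKM + 1), vertical axis) against the mean level of each of the 10976 genes tested (horizontal axis, log2 scale); blue and orange mark genes that passed as higher or lower, grey those that did not, and dotted lines a difference of 1. Beyond the dotted lines the 837 genes lower in wild type outnumber the 499 higher ones.

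Among the genes higher in wild type, the largest difference was that of Krt19, a type I keratin of simple epithelia and mesothelium. Krt19 stood at 519, 519, 327 and 267 FPKM in the wild-type libraries at 0, 1, 4 and 16 h and at 4.91, 4.86, 2.46 and 1.53 FPKM in the null libraries, a difference of 6.56 ± 0.0604 (adjusted p = 4.02e-06). It fell along the time course in both lines and their ranges were far apart. Trf, which encodes the iron carrier transferrin, was at 139, 136, 110 and 45.8 FPKM against 0.550, 0.623, 0.766 and 0.355 FPKM (5.995 ± 0.241, adjusted p = 5.75e-05). Cd200, a membrane ligand that restrains myeloid cells, went from 11.9 FPKM at 0 h through 19.6 and 42.7 to 65.2 FPKM at 16 h in wild type, and never exceeded 0.267 FPKM in the null line (4.71 ± 0.367, adjusted p = 0.000281). Cd200 was listed at 0 in both null libraries of the second set. The transcription cofactor Eya4 (49.4 ± 8.30 against 0.991 ± 0.132 FPKM, SD, n = 4 libraries a line), the amino acid transporter Slc38a4 (57.7 ± 2.72 against 2.27 ± 0.539 FPKM), the desmosomal plaque protein Pkp1 and the lymphatic VEGF receptor Flt4 differed by 4.65, 4.18, 4.05 and 3.995. Ddx4, a germ-cell RNA helicase, was also higher, at 81.5, 63.7, 48.6 and 15.8 FPKM in wild type and 4.52, 3.70, 2.14 and 0.417 FPKM in the null line (3.81 ± 0.0814, adjusted p = 1.81e-05).

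The largest difference among the genes lower in wild type was that of the microRNA gene Mir196a-1, which was listed at 0 in each wild-type library and is not well measured by a poly(A) library. Ptn, the heparin-binding growth factor pleiotrophin, was at 1.20, 1.66, 0.987 and 0.693 FPKM in wild type and 187, 173, 141 and 44.8 FPKM in the null line (-5.84 ± 0.281, adjusted p = 8.23e-05). Sfrp1, a secreted Wnt antagonist, was below 0.4 FPKM in each wild-type library, at 0.130, 0.355, 0.151 and 0.179 FPKM, and at 63.6, 57.3, 68.7 and 29.2 FPKM in the null libraries (-5.47 ± 0.218, adjusted p = 5.72e-05). The groups did not overlap for either gene, and the null libraries of the second set were higher still, at 328 and 304 FPKM for Ptn and 144 and 139 FPKM for Sfrp1. Arhgdib, an inhibitor of small GTPase cycling, averaged 3.73 ± 0.898 FPKM against 241 ± 46.0 FPKM (-5.68). S100a4, the calcium-binding protein often used as a fibroblast marker, was among the most abundant transcripts of the null line, at 2900, 2954, 2582 and 1813 FPKM, and reached 87.2, 76.1, 65.9 and 71.2 FPKM in wild type (-5.06 ± 0.112, adjusted p = 1.82e-05). The IGF-binding protein Igfbp3 (2.51 ± 0.743 against 98.6 ± 18.7 FPKM), the stem-cell antigen Cd34, the BMP antagonist Grem1 and the lymphangiogenic ligand Figf (VEGF-D) differed by -4.83, -4.54, -4.22 and -4.04.

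**Figure D2:**
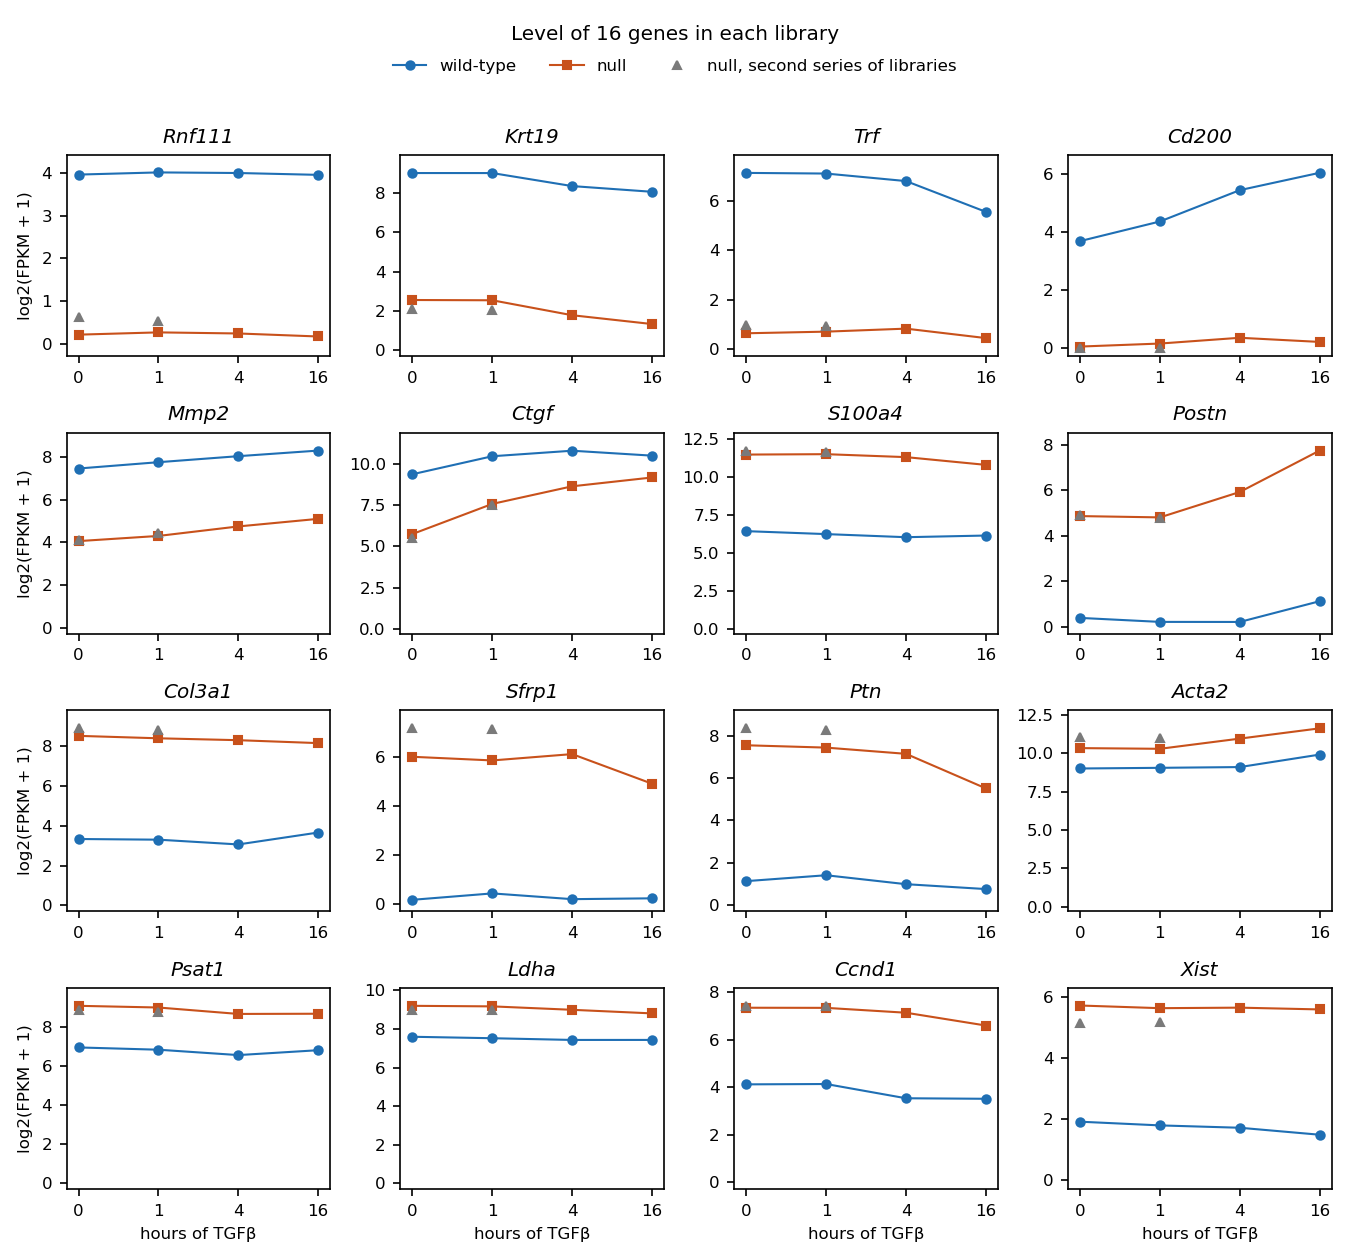
Level of 16 genes in each library, as log2(FPKM + 1) against hours with TGFβ; blue circles are wild type, orange squares the null line and grey triangles the null libraries of the second set at 0 and 1 h. Krt19, Trf, Cd200, Mmp2 and Ctgf run higher in wild type and Ptn, Sfrp1, S100a4, Col3a1, Ccnd1 and Xist run higher in the null line at each time, and the grey triangles lie near the orange squares.

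Some genes were close to absent in 1 line and expressed throughout in the other. With off defined as below 0.5 FPKM in all 4 libraries and on as at least 5 FPKM in all 4, Cd200 and Rnf111 were on only in wild type, and 30 genes were on only in the null line. Those 30 included the Wnt ligand Wnt7b, the growth factor Fgf7, the peptide hormone Cck, the collagen-binding integrin subunit Itga1, the mitochondrial adenylate kinase Ak4, the coagulation inhibitor Tfpi and the imprinted genes Dlk1, Ddc and Plagl1. Dlk1, which encodes a non-canonical Notch ligand, was at 17.2, 20.3, 18.3 and 14.4 FPKM in the null libraries and below 0.001 FPKM in the wild-type ones. How the genes in the table were selected is not given in the sources used here, and its part in the counts of the 2 directions, here and above, was not tested.

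Fibroblast markers went one way. All 12 of the 15 listed markers that could be tested were lower in wild type, 10 of them by at least 1, with a median of -2.14. Of all genes tested, 30.1% were lower and 7.63% were lower by at least 1. The lower markers included Col3a1, Cd34, Ly6a (Sca-1), the proteoglycan Lum, the mesenchymal factor Prrx1, the collagen receptor Ddr2, Pdgfrb and Thy1. The cells of both lines still carried the mesenchymal intermediate filament Vim at a high level, 1266 ± 49.7 FPKM in wild type and 1439 ± 83.3 FPKM in the null line, with a small difference (-0.18 ± 0.0379, adjusted p = 0.00803) that changed sign under quantile normalization (0.11). Sparc, a collagen-binding glycoprotein of fibroblasts, was at 1274 ± 91.4 and 1248 ± 102 FPKM, and its interval ran from -0.06 to 0.12. Sparc was called in both directions by the alternatives, at 0.32 under quantile normalization, -0.37 with the null libraries of the second set and -0.52 after centring on chromosomes. In bulk RNA, fewer cells of a type and less RNA per cell cannot be told apart.

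Mesothelial markers were present in both lines and moved in both directions. Of 8 tested, Krt19, Upk1b and Wt1 were higher in wild type, Lrrn4, Krt8, Msln and Upk3b were lower, and Gpm6a did not pass (32.8 and 32.2 FPKM). The summed level of the list was 683 to 1177 FPKM in wild type and 392 to 643 FPKM in the null libraries. Wt1, a transcription factor of coelomic epithelium and its derivatives, was at 64.5, 60.8, 51.9 and 49.3 FPKM in wild type and at 16.9, 14.9, 16.8 and 13.96 FPKM in the null line (1.79 ± 0.0738, adjusted p = 5.97e-05). Msln, the mesothelial surface protein mesothelin, went the other way, at 42.7, 43.9, 38.0 and 41.7 FPKM against 83.4, 85.9, 84.5 and 68.9 FPKM (-0.94 ± 0.074, adjusted p = 0.000292). Neither gene overlapped between the lines. Of 6 epithelial markers tested, Krt19 was higher, Krt7, Krt8, Krt18 and Dsp were lower and Krt14 did not pass (0.76), though it passed as higher without the 16 h library of either line (1.14) and with the second set's null libraries (1.73). Their summed level, 292 to 541 FPKM in wild type and 44.5 to 74.1 FPKM in the null libraries, was nearly all Krt19 in wild type. The endothelial list rested on Flt4 and Flt1, which were higher, and Kdr, which was lower, and summed to at most 43.3 FPKM in a library. The haematopoietic list rested on Cd68 (higher) and Cd14 (lower) and summed to at most 17.1 FPKM. Of the neural and glial list, Nes, Tubb3 and Ncam1 were higher and Map2 lower (Ncam1 did not pass without the 0 h or the 1 h library of either line), with sums of 51.0 to 85.1 FPKM in wild type and 25.1 to 41.7 FPKM in the null libraries. The cartilage and bone genes Spp1 (not called with the second set's null libraries added) and Sox9 (not called without the 4 h library of either line, and at 0.0581 after centring on chromosomes) and the pluripotency gene Nanog were higher, the adipocyte gene Lpl was lower, and neither skeletal muscle gene, Acta1 nor Mylpf, passed. The part of these cell types in the gene differences was not tested.

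Among the signalling genes next to Arkadia, SMADs passed less often than all genes (33.3% against 67.5%). Receptors (77.8%) and Arkadia substrates with SMAD ubiquitin regulators (70%) passed about as often as all genes. Differences of at least 1 made up 0%, 11.1% and 15% of the 3 lists, against 12.2% of all genes. Of 6 SMADs, the signal transducers of the pathway, Smad4 and Smad5 were slightly higher in wild type (0.24 and 0.26) and none was lower, against 67.5% of all genes that passed. Neither of the 2 passed after centring on chromosome medians, described further on. Smad9 (0.53, adjusted p = 0.0578) did not pass, but passed as higher after that centring (0.94), under quantile normalization (0.66), without the 4 h library of either line (0.76) and with the null libraries of the second set in place (1.09). Smad3, at 25.1 ± 2.48 and 26.1 ± 4.88 FPKM, and Smad2, at 11.97 ± 1.05 and 11.4 ± 0.338 FPKM, did not pass, with intervals of -0.22 to 0.14 and -0.11 to 0.22. Of 9 receptors, 2 were higher (the BMP receptors Acvr1 and Bmpr2) and 5 lower. Neither of these BMP receptors passed without the 0 h library of either line or without time as a block. Acvr1 also did not pass without the 1 h or 4 h library of either line. The same held under median-ratio scaling (0.43), under quantile normalization (0.46) and after centring on chromosomes (0.14). Only the co-receptor Tgfbr3, at 1.08 and 8.21 FPKM, differed by at least 1 (-2.002). The type I TGFβ receptor Tgfbr1 was lower by a small amount (-0.36, which did not pass without the 0, 1 or 4 h library of either line and was -0.21 without either 16 h library). Its direction was not stable, since it passed as higher with the null libraries of the second set in place (0.31). With those libraries added (-0.19), after centring (-0.19) and without time as a block it did not pass. The type II receptor Tgfbr2 did not pass, at 26.6 ± 3.48 and 28.8 ± 5.85 FPKM, except with the null libraries of the second set (-0.41). Of 20 Arkadia substrates and SMAD ubiquitin regulators, 6 were higher and 8 lower, close to the share of all genes. The ubiquitin ligases Nedd4l and Wwp1 and the endocytic adaptor Dab2 were lower by at least 1, and the ligase Smurf2 was higher (39.8 against 20.6 FPKM, 0.93), but not after centring on chromosome medians (0.39).

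Transcripts of the repressors that Arkadia protein degrades gave small differences. Smad7 was at 8.21, 40.1, 19.9 and 15.3 FPKM in wild type and 5.89, 24.4, 12.5 and 12.3 FPKM in the null line, higher in wild type at each time (0.51 ± 0.0811, adjusted p = 0.00304), though it did not pass without time as a block. Ski was at 15.8, 38.1, 27.8 and 22.96 FPKM against 25.2, 37.6, 32.5 and 28.7 FPKM and did not pass (-0.29 ± 0.11, adjusted p = 0.0639). Ski did pass as lower under median-ratio scaling (-0.36), under quantile normalization (-0.33), without the 1 h library of either line (-0.39) and with the null libraries of the second set in place (-0.62). The ranges of the lines overlapped for both genes, since both transcripts rose and fell over the time course. Protein levels were not measured.

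Ligands and antagonists differed more than receptors and SMADs did in size. Of 15 TGFβ and BMP ligands and latent-form binding proteins, 3 were higher, led by Ltbp1 (62.4 against 26.7 FPKM, 1.20) and the activin subunit Inhbb, and 5 were lower, led by Ltbp2 (-2.43) with Bmp6, Bmp1, Bmp4 and Ltbp4. Tgfb1 (0.58), Tgfb2 (-0.14) and Tgfb3 (0.85) did not pass, but Tgfb1 and Tgfb3 passed as higher without the 16 h library of either line (0.855 and 1.19) and all 3 passed with the null libraries of the second set in place. In all, 2 to 5 of the list were higher with 1 library left out, and 9 were lower with those null libraries. Among 8 BMP and activin antagonists, Grem1, at 4.18, 2.93, 2.50 and 2.08 FPKM in wild type and 72.6, 68.3, 80.0 and 62.7 FPKM in the null line, was the lowest (-4.22 ± 0.123, adjusted p = 2.76e-05), and follistatin (Fst, -2.30), noggin (Nog, -1.98) and Fstl1 were lower too, Fstl1 not without the 4 h library of either line. Bmper went the other way, at 49.8, 49.3, 48.3 and 42.0 FPKM against 5.32, 5.57, 6.05 and 8.42 FPKM (2.74 ± 0.146, adjusted p = 0.000105), as did Chrd. The antagonists therefore moved in opposite directions, with no overlap between the lines for Grem1 or Bmper.

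Early TGFβ target genes did not move as a group either. Of 20 tested, 7 were higher in wild type, 5 lower and 8 did not pass, with a median of -0.0527 against 0.0739 for all genes tested. Without time as a block only 2 of the 20 were higher. Ctgf, a matricellular protein and a standard TGFβ target, was at 663, 1413, 1782 and 1449 FPKM in wild type and 52.9, 190, 399 and 578 FPKM in the null line (2.50 ± 0.370, adjusted p = 0.00234), each wild-type library above each null one. The SMAD-interacting feedback gene Pmepa1 (23.3, 74.5, 120 and 94.0 against 8.95, 27.0, 41.4 and 44.2 FPKM, 1.33, which did not pass without time as a block) and Tsc22d1 (1.62) were also higher. Tgfbi (2.59 against 22.6 FPKM, -2.72), Fhl2 (-1.62), Zeb1, Cyr61 (not passing after centring on chromosomes) and Snai2 (not passing without time as a block or with the second set's null libraries) were lower, and Id1, Id2, Id3 and Snai1 did not pass.

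Extracellular matrix genes were more often lower than higher in wild type. Of 22 collagen genes, 12 were lower and 6 higher, with 7 and 1 at a size of at least 1. Of all genes tested, 30.1% were lower and 37.4% higher, with 7.63% and 4.55% at that size. Col3a1, a fibrillar collagen of soft tissue, was at 9.05, 8.82, 7.32 and 11.6 FPKM in wild type and 359, 330, 309 and 279 FPKM in the null line (-4.98 ± 0.134, adjusted p = 2.49e-05). The pair of genes for collagen I was lower as well. Col1a1 stood at 437, 588, 693 and 829 FPKM against 1030, 1008, 1255 and 1942 FPKM (-1.02 ± 0.0945, adjusted p = 0.000461), and Col1a2 at 66.1 ± 7.91 against 169 ± 29.3 FPKM (-1.33). The groups of libraries did not overlap for these collagens. Col5a2 (317 against 224 FPKM) and Col20a1 were among the 6 higher ones, of which only 2 were called without time as a block, and Col5a2 was not. Of 25 collagen-modifying and crosslinking enzymes, 17 were lower and only the lysyl hydroxylase Plod2 was higher (0.42, not passing without time as a block). The lower ones included the prolyl hydroxylase P4ha1 (29.1 against 94.5 FPKM, -1.67), the lysyl oxidases Loxl1, Loxl2 and Loxl3, the procollagen-processing factors Pcolce, Pcolce2 and Adamts2, and the collagen chaperone Serpinh1 (348 against 746 FPKM, -1.09).

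The remaining matrix lists divided by gene, and their counts stand beside 30.1% lower and 37.4% higher among all genes. Of 12 elastic fibre genes all passed, 8 lower and 4 higher: the microfibril-linked Emilin1 (-2.68) and Mfap5 (-2.58) were lower, whereas Efemp1 (7.36 against 0.383 FPKM, 2.51), the main microfibril protein Fbn1 (43.9 ± 10.0 against 9.30 ± 7.63 FPKM, 2.34) and Fbln1 (2.05) were higher. Of 17 proteoglycans, 12 were lower and 3 higher. The small leucine-rich proteoglycans Fmod (-3.54), Ogn (-3.29), Lum, Prelp and Aspn (-2.47) were lower, while biglycan (Bgn), the most abundant member, was at 388 ± 55.4 and 384 ± 92.6 FPKM and did not pass (though called higher under quantile normalization, 0.24, and with the second set's null libraries, 0.1997). The cell-surface proteoglycans Gpc2, Cspg4 and Sdc1 were the 3 higher ones. Of 20 matricellular and adhesive glycoproteins, 12 were lower and 3 higher, namely Ctgf, fibronectin (Fn1, 889, 870, 889 and 809 against 370, 347, 413 and 541 FPKM, 1.07) and Spp1.

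Postn, which encodes the matricellular protein periostin, differed most among these glycoproteins. It was at 0.321, 0.170, 0.168 and 1.19 FPKM in wild type and at 28.1, 27.0, 59.5 and 212 FPKM in the null line (-5.34 ± 0.382, adjusted p = 0.000225). The 16 h library was the highest in each line, and the lines did not overlap. Nid2, Tgfbi, Thbs2 and Ccdc80 were lower by at least 2. Of 19 laminins and basement membrane genes, 13 were lower, where 30.1% of all genes were. The lower ones were led by Nid2, Lamb3 and the integrin ligand Npnt (4.65 against 36.5 FPKM, -2.73), and Lama5 and Bcam were higher. Lama5 did not pass after centring on chromosomes (0.23), and Bcam was lower with the null libraries of the second set (-0.54).

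Proteases of the matrix moved both ways. Of 27 matrix metalloproteinases, ADAMTS proteases and inhibitors, 13 were lower and 7 higher, so 74.1% passed, near the 67.5% of all genes. Differences of at least 1 made up 48.1%, against 12.2% of all genes. Mmp2, gelatinase A, was at 176, 216, 263 and 316 FPKM in wild type and 15.6, 18.7, 25.8 and 33.3 FPKM in the null line (3.34 ± 0.0557, adjusted p = 1.18e-05), and it rose over time in both. Its inhibitor Timp2 was also higher (381 against 188 FPKM, 1.00). Mmp14, the membrane protease that activates pro-Mmp2, was lower (32.8 against 76.4 FPKM, -1.21), as were Mmp3, Mmp13 and the membrane-anchored inhibitor Reck.

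Cell-surface adhesion genes followed no common direction. Of 12 integrin subunits, 66.7% passed, near the 67.5% of all genes. Among them 4 were higher, including Itgb3 (13.8 against 2.78 FPKM, 1.96), and 4 lower, led by Itga1 (-3.34) and the laminin-binding Itga6 (-1.81). The most abundant subunit, Itgb1, did not pass, at 347 and 342 FPKM, and was called in both directions by the alternatives (0.21 with the second set's null libraries, -0.23 after centring on chromosomes). Of 18 cadherins and protocadherins, 10 were lower and 4 higher: N-cadherin (Cdh2) was higher (67.5 ± 4.43 against 28.0 ± 2.93 FPKM, 1.24) and the mesenchymal cadherin Cdh11 lower (9.39 ± 2.03 against 55.7 ± 29.7 FPKM, -2.33). Of 24 keratin, desmosomal and tight junction genes, 14 were lower, led by the claudin Cldn15 (-4.37), and 6 higher, led by Krt19, Pkp1 and the junctional adhesion molecule F11r (83.2 against 13.1 FPKM, 2.58).

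Contractile genes, which mark smooth muscle and myofibroblasts, were divided between the lines. Of 31 tested, 12 were lower and 9 higher, so 67.7% passed, near the 67.5% of all genes. Acta2, smooth muscle actin, was at 511, 527, 545 and 957 FPKM in wild type and 1282, 1242, 1967 and 3127 FPKM in the null line (-1.53 ± 0.114, adjusted p = 0.000246), and the regulatory light chain Myl9 was at 15.8 against 249 FPKM (-3.87). Tagln, another smooth muscle marker, ran the opposite way, at 469, 466, 594 and 994 FPKM against 114, 120, 171 and 337 FPKM (1.83 ± 0.0834, adjusted p = 7.59e-05). The lines did not overlap for either gene, and both genes were highest at 16 h in each line. Cnn1 (2.09), the LIM-domain cofactor Lmcd1 (4.00) and the nonmuscle myosin Myh10 (1.60) were higher, and Lmod1, Actg2 and Tpm1 lower. The smooth muscle marker list thus held 3 higher genes (Tagln, Cnn1 and Smtn) and 1 lower (Acta2), with Des not passing and Smtn at -0.05 after centring on chromosome medians.

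Positional identity genes showed the most one-sided pattern of the transcription factor lists. Of 18 Hox genes tested, which record position along the body axis, 17 were lower in wild type and none was higher. For 15 the difference was at least 1, against 7.63% of all genes, and the median was -1.76. Hoxb6 was at 0.668, 0.805, 0.861 and 0.717 FPKM in wild type and 15.3, 21.5, 18.97 and 15.6 FPKM in the null line (-3.41 ± 0.0843, adjusted p = 2.28e-05). Hoxb9 was at 2.05, 2.77, 2.09 and 3.51 FPKM against 14.9, 17.2, 18.3 and 21.6 FPKM (-2.41 ± 0.0799, adjusted p = 3.35e-05). Neither gene overlapped between the lines. Hoxa5, Hoxa10, Hoxa11 and Hoxd8 of other clusters were lower by at least 2. The differences of Hoxb2 and Hoxb4 were small, and Hoxb4 did not pass without the 0 h or the 1 h library of either line. Neighbouring Hox genes overlap and share reads at low levels, so single values of weak members are uncertain. The filter used the mean of the 8 libraries, so a member could enter through the null line where it was high. With 1 library left out 15 to 17 were lower. The other fits (no time block, centring on chromosomes, the second set's null libraries) gave 17. These fits carry the same 2 limits and do not address them.

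Other patterning factors gave 24 lower and 9 higher of 45. Irx2 (0.282 against 10.8 FPKM, -3.20), Msx1, Tbx1, Tlx1, Eya1 and Shox2 were lower by at least 2. Eya4, Emx2 (14.4 against 2.16 FPKM, 2.25), which patterns the urogenital system and forebrain, and Tbx18 (1.38), a factor of epicardium and urogenital mesenchyme, were the clearest of the higher ones. Of 27 Sox and Fox factors, 15 were higher and 7 lower, the reverse tendency, with Sox11 (2.66), Sox12 (2.55) and Foxa2 (2.41) highest and Foxd1 (-1.82) lowest.

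The same division held for secreted signals. Of 34 Wnt ligands, receptors and modulators, 21 were lower and 9 higher: Sfrp1, Wnt7b, Wnt7a, Wnt4, the receptor Fzd1 (-2.22), and the Wnt target genes Axin2, Lgr5 and Notum were lower, and Wnt11 (10.7 against 1.47 FPKM, 2.21) and Rspo1 higher. Of 17 Notch and Hedgehog genes, 6 were higher and 6 lower, so 70.6% passed, near the 67.5% of all genes. The Notch ligands Jag1 (49.1 ± 22.8 against 13.8 ± 10.2 FPKM, 1.90) and Jag2 (2.41) were higher, and Gas1, a Hedgehog co-receptor (1.57 against 50.03 FPKM, -4.13), and Gli2 were lower. Of 31 growth factor ligands, 17 were lower, led by Ptn, Cck and Figf, and 8 higher, led by the EGF-family ligand Btc (21.1 against 0.336 FPKM, 3.81). Of 21 receptor tyrosine kinases, 11 were lower, led by Ddr2 (-2.08), and 7 higher, among them Flt4, Flt1 and Egfr (0.77). The IGF system gave 6 higher and 6 lower of 16, so 75% passed, near the 67.5% of all genes. Igf2 (37.9 ± 11.4 against 8.396 ± 4.24 FPKM, 2.12), Igfbp2 (2.78) and Igfbp4 (284 against 70.9 FPKM, 1.99) were higher, while Igfbp3 and the clearance receptor Igf2r (-0.90) were lower. Dlk1, named with this list, was lower as well, though it encodes a non-canonical Notch ligand. Of 47 axon guidance ligands and receptors, 22 were lower, led by Slit2 (5.58 against 51.1 FPKM, -3.01), and 16 higher, led by Sema3d (2.88).

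Interferon response and antigen presentation genes were lower in wild type on balance. Of 26 interferon response genes, 17 were lower, 10 of them by at least 1, and 4 higher. Ifitm3, a membrane protein that limits virus entry, was at 82.8, 81.8, 71.2 and 62.2 FPKM in wild type and 376, 359, 338 and 235 FPKM in the null line (-2.11 ± 0.0628, adjusted p = 2.82e-05). Its null libraries in the second set were at 813 and 784 FPKM. The lines did not overlap. Of 19 antigen presentation genes, 14 were lower and none higher. B2m, the light chain of MHC class I, was at 161, 165, 172 and 199 FPKM against 325, 327, 317 and 345 FPKM (-0.92 ± 0.0491, adjusted p = 0.000107). Of 55 chemokines, cytokines and receptors, 14 were higher, led by the decoy receptor Tnfrsf11b (51.9 against 4.06 FPKM, 3.69), and 19 lower, led by the IL-33 receptor Il1rl1 (-2.86), near the 30.1% of all genes. Only 9 were higher without time as a block, and 30 were lower with the null libraries of the second set in place of those of the first.

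**Figure D3:**
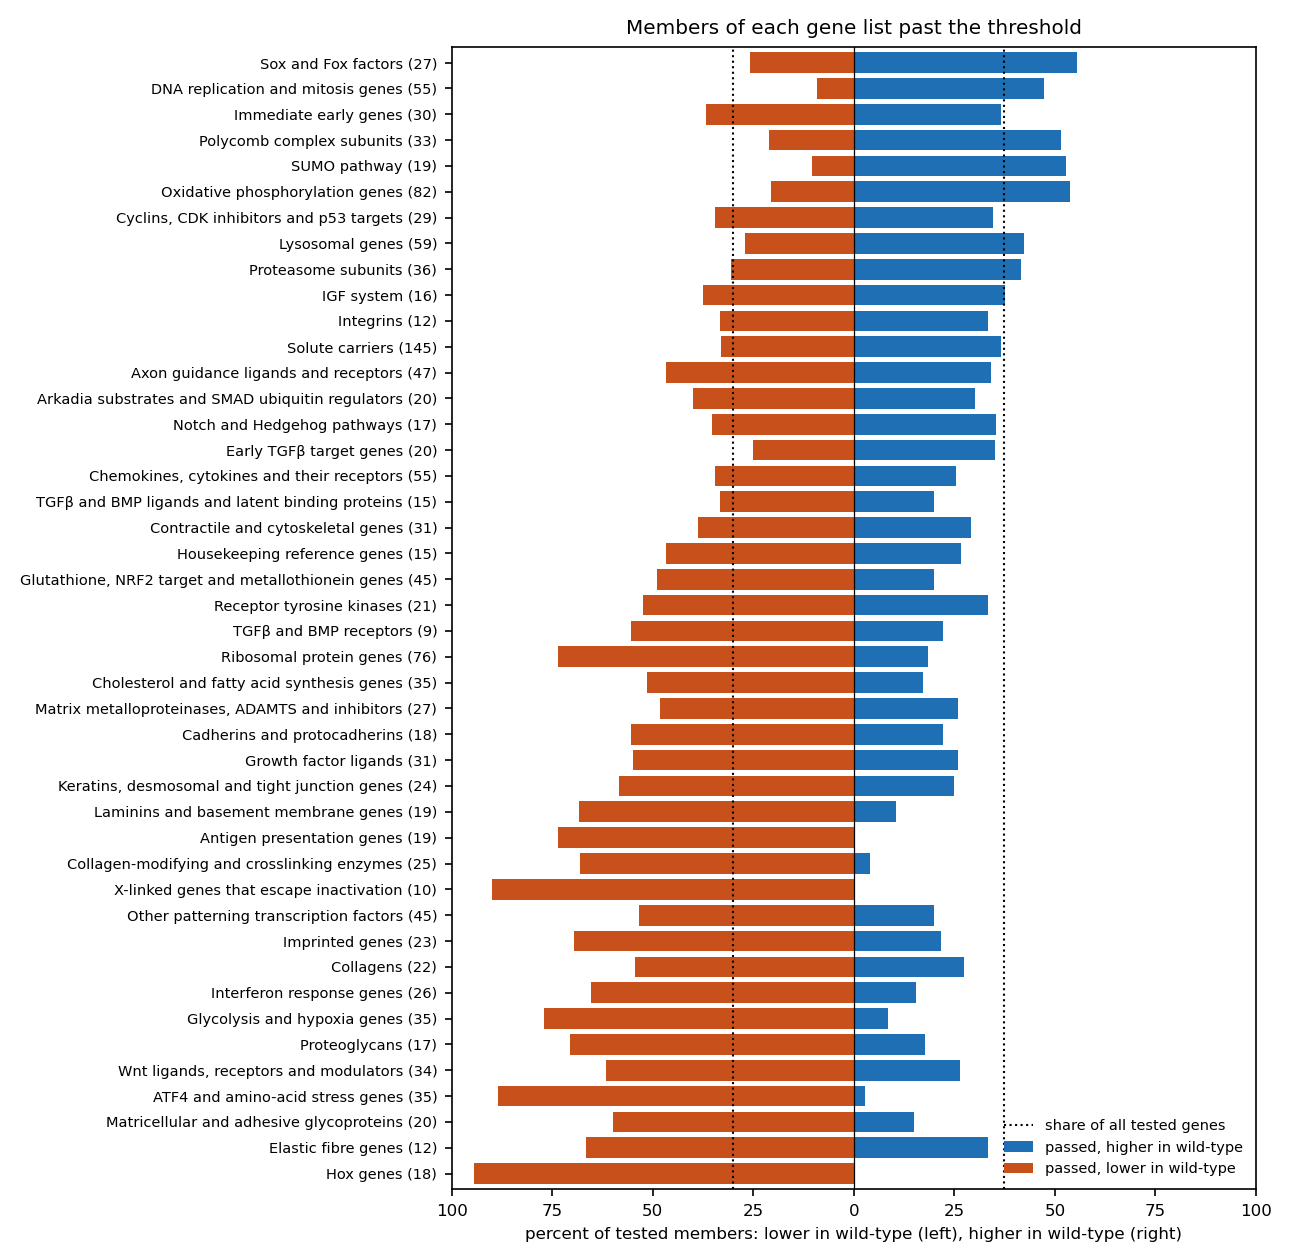
Share of the members of each gene list with at least 9 tested genes that passed, in percent, higher (to the right) or lower (to the left) in wild type; the dotted lines are the shares of all genes tested, 37.4% and 30.1%. Hox genes, X-linked escape genes, ATF4 targets, glycolysis genes, antigen presentation genes and ribosomal protein genes extend furthest to the lower side, and DNA replication and oxidative phosphorylation genes lie above the higher background.

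Genes of the amino-acid stress response were nearly all lower in wild type. The transcription factor ATF4 is translated when amino acids are scarce or the endoplasmic reticulum is stressed, and drives genes for amino acid synthesis, transport and tRNA charging. Of 35 such genes, 31 were lower, 15 of them by at least 1 (7.63% of all genes), 1 was higher (the tRNA synthetase Mars, 0.18, which did not pass without the 1 h library of either line), and 3 did not pass. The median was -0.845, and 25 to 32 were lower under the alternatives tried. Atf4 itself was at 179 ± 20.2 and 285 ± 53.9 FPKM (-0.65). Psat1, of serine synthesis, was at 123, 113, 93.4 and 111 FPKM in wild type and 542, 510, 406 and 409 FPKM in the null line (-2.07 ± 0.0593, adjusted p = 2.66e-05). Nupr1, a stress-induced chromatin protein, was at 14.9, 21.3, 38.0 and 39.6 FPKM against 94.2, 127, 171 and 227 FPKM (-2.44 ± 0.0823, adjusted p = 3.58e-05). Both genes were separated at each time, and Nupr1 was highest at 16 h in both lines. Asns, asparagine synthetase, was at 49.3, 48.7, 46.2 and 76.1 FPKM against 108, 107, 103 and 167 FPKM (-1.12 ± 0.0354, adjusted p = 3.04e-05). The glutathione-degrading enzyme Chac1 and the pseudokinase Trib3 differed by -1.27 and -1.09, and Trib3 was at 9.77 and 39.0 FPKM in the 16 h libraries.

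The promoters of these genes were searched for TGATGNAA, the core of the element that binds ATF4 dimers, on both strands, in a window of 250 bases before to 50 bases after the start of each gene (RefSeq, GRCm38.p6). The element was found in 11 of the 26 list members with a promoter in that table (42.3%), in 191 of 8151 genes tested (2.34%) and in 1219 of all 27025 promoters (4.51%). Of the 11, 9 were lower in wild type and 2, Iars and Slc7a11, did not pass. Such elements are part of how genes of this list came to be known, so the share describes the list, and a match is not a measured binding site. The windows of 4 of the lower genes are shown because they carry the element in different places and orientations; capitals mark it, as TGATGNAA or as its reverse complement. They are 6:7693160-7693459 (minus strand) for Asns, 7:126625421-126625720 (minus strand) for Nupr1, 2:119350992-119351291 (plus strand) for Chac1 and 2:152344011-152344310 (minus strand) for Trib3.
Asns: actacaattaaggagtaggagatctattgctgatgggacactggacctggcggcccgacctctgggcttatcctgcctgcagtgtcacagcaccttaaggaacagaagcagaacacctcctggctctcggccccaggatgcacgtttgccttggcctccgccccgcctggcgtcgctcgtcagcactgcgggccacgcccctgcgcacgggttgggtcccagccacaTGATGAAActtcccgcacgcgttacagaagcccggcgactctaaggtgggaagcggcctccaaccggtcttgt
Nupr1: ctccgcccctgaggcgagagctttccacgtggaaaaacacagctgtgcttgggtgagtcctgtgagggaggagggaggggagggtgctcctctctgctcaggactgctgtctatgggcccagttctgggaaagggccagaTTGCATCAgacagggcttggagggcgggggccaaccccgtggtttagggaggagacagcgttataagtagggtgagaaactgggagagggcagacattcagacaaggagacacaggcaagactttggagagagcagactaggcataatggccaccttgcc
Chac1: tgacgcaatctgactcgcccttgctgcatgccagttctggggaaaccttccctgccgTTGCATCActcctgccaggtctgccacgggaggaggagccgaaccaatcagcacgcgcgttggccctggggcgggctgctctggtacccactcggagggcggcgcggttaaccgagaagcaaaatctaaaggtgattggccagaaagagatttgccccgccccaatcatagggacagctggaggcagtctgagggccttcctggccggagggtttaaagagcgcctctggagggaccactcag
Trib3: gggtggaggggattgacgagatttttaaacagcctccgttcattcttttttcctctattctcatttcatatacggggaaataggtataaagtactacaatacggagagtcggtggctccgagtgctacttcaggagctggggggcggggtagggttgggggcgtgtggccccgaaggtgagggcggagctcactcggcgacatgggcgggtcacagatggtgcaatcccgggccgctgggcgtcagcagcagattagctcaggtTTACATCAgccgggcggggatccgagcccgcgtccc

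Glycolytic and hypoxia-inducible genes gave a similar pattern. Of 35, 27 were lower in wild type, 10 of them by at least 1, 3 were higher (Car12, Pfkm and Hk1) and 5 did not pass, among them Gapdh and Pfkfb3. The median was -0.716, and 23 to 30 were lower under the alternatives tried. Ldha, lactate dehydrogenase, was at 193, 183, 172 and 172 FPKM in wild type and 589, 577, 510 and 448 FPKM in the null line (-1.55 ± 0.0544, adjusted p = 3.95e-05). The glucose transporter Slc2a1 was at 19.6, 23.2, 31.2 and 24.1 FPKM against 89.1, 97.1, 86.6 and 83.9 FPKM (-1.84 ± 0.120, adjusted p = 0.000175). Neither overlapped between the lines. Bnip3, of mitophagy (3.28 against 22.3 FPKM, -2.40), Ndrg1, the kinase Pdk1 and the prolyl hydroxylase Egln3 were lower by at least 1. Hif1a transcript, which encodes a factor regulated mainly through its protein, differed slightly (36.7 ± 2.97 against 42.0 ± 1.5 FPKM, -0.19) and did not pass without the 1, 4 or 16 h library of either line. Its direction was not stable, as it passed as higher with the null libraries of the second set in place (0.35) and did not pass with them added (-0.05). Vegfa did not pass (adjusted p = 0.0812). Oxygen was not measured.

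ACGTG, the core of the element that binds hypoxia-inducible factors, is short and common. On both strands of the same windows it was found in 19 of 31 list members (61.3%), in 2450 of 8151 genes tested (30.1%) and in 5886 of 27025 promoters (21.8%). Of the 19, 14 were lower, 2 higher and 3 did not pass. The palindrome CACGTG, which other factors bind, holds the core on both strands. The windows of Ldha (7:46845554-46845853, plus strand) and of Pgk1, phosphoglycerate kinase (X:106186850-106187149, plus strand), are shown as genes long known for this element, with the core and its reverse complement in capitals. Pgk1 was at 236, 225, 199 and 180 FPKM in wild type and 474, 459, 392 and 308 FPKM in the null line (-0.94 ± 0.053, adjusted p = 0.000121). The Ldha window holds 5 matches, of which 2 pairs are the palindrome, and the Pgk1 window holds 2.
Ldha: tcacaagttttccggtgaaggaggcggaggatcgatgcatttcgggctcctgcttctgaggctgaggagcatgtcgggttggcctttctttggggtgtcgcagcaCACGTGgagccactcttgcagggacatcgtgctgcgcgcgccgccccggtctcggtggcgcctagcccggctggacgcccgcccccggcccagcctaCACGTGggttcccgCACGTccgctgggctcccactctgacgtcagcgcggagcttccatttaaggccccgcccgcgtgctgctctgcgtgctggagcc
Pgk1: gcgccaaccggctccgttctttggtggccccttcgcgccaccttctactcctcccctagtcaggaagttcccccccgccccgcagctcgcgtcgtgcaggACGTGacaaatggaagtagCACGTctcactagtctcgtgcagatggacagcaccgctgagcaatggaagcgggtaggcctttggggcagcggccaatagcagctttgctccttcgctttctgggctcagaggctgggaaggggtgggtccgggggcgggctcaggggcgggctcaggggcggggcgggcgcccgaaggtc

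Other metabolic and housekeeping machinery differed by small amounts. Of 76 ribosomal protein genes, 56 were lower and 14 higher in wild type, none by as much as 1, with a median of -0.304. Rps20, for example, was at 851 ± 53.7 and 1467 ± 102 FPKM (-0.79). Only 2 were higher and 66 lower when each gene was centred on the median of its chromosome, and 4 higher and 58 lower with the null libraries of the second set. Of 82 oxidative phosphorylation genes, 44 were higher and 17 lower, none by as much as 1. That direction depended on the null libraries used, since those of the second set gave 8 higher and 44 lower, and centring on chromosomes gave 26 higher and 19 lower. Of 36 proteasome subunits, 15 were higher and 11 lower, and 6 were lower after that centring. The share of these subunits that passed, 72.2%, was near the 67.5% of all genes. Of 59 lysosomal genes, 69.5% passed, again near that of all genes. Here 25 were higher, led by the proton pump subunit Atp6v0e2 (2.36) and Ctsz (103 ± 3.59 against 33.7 ± 1.61 FPKM, 1.59), and 16 lower, led by the acid lipase Lipa (-2.64). With the second set's null libraries 12 were higher and 28 lower.

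Of 35 cholesterol and fatty acid synthesis genes, 18 were lower, led by Cyp51 and Sqle (25.4 against 72.8 FPKM, -1.47), and 6 higher, led by Srebf1 (1.29). The share that passed, 68.6%, was near the 67.5% of all genes, and after centring on chromosomes only 3 were higher. Of 45 glutathione, NRF2-target and metallothionein genes, 22 were lower, 13 of them by at least 1, and 9 higher, so 68.9% passed. Mt1, a metal-binding metallothionein, was at 24.5, 24.4, 17.1 and 24.2 FPKM in wild type and 184, 175, 151 and 48.8 FPKM in the null line (-2.43 ± 0.365, adjusted p = 0.00247), and Nqo1, Gstm1 and Sod3 were lower by more than 2. The glutathione transferase Gsta4 was higher (77.2 against 19.4 FPKM, 1.87). Solute carriers were near the background, with 53 higher and 48 lower of 145. Of 15 common reference genes, 7 were lower, among them Pgk1, B2m and Rpl13a, 4 were higher, and Gapdh, Hprt, Tbp and Sdha did not pass. Gapdh passed as lower with the null libraries of the second set (-1.13), after centring on chromosomes (-0.42), under median-ratio scaling (-0.22) and without either 16 h library (-0.20), and Hprt passed as lower under median-ratio scaling (-0.15) and as higher with those null libraries (0.19). Sdha passed as lower after centring (-0.19).

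Genes of DNA replication and mitosis passed less often than all genes (56.4% against 67.5%), and those that passed were mostly higher in wild type. Of 55, 26 were higher and 5 lower, with a median of 0.353, where 37.4% and 30.1% of all genes were. The origin-licensing factors Cdc6 (23.9 ± 1.34 against 10.5 ± 1.87 FPKM, 1.13) and Mcm2 (86.8 ± 2.76 against 48.6 ± 5.66 FPKM, 0.83) were among the higher, and the ribonucleotide reductase subunit Rrm2 was lower (89.5 against 152 FPKM, -0.74). Cdc20, Mki67, Ccna2 and E2f2, the other 4 lower ones, each failed to pass without the 1 h library of either line, and again without the 4 h library. The count depended on single libraries and on the null libraries used: it ran from 18 to 28 higher and 1 to 12 lower with 1 library left out, the 12 without either 16 h library, and was 35 higher and 5 lower with the null libraries of the second set. After centring on chromosomes the count was 19 higher and 3 lower. Of 29 cyclins, CDK inhibitors and p53 targets, 10 were higher and 10 lower, so 69% passed, near the 67.5% of all genes. The D cyclins, which drive entry into S phase, differed in opposite directions. Ccnd1 was at 16.3, 16.5, 10.5 and 10.4 FPKM in wild type and 162, 161, 140 and 95.7 FPKM in the null line (-3.28 ± 0.0921, adjusted p = 2.63e-05), while Ccnd2 was at 170, 132, 70.7 and 70.6 FPKM against 46.0, 41.8, 33.1 and 48.1 FPKM (1.28 ± 0.224, adjusted p = 0.00435). The lines did not overlap for either cyclin.

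Of 30 immediate early genes, 11 were higher and 11 lower, so 73.3% passed, near the 67.5% of all genes. The ERK phosphatase Dusp6 was at 102, 85.2, 97.5 and 58.6 FPKM in wild type against 9.50, 13.2, 18.4 and 20.2 FPKM (2.43 ± 0.282, adjusted p = 0.000974), whereas the ERK inhibitors Spry1 and Spry2 were lower (-1.74 and -0.95). Of 7 replication-dependent histone genes, 6 were lower and none higher, although poly(A) selection leaves most such transcripts out. With the null libraries of the second set in place 16 were lower, and 9 with them added, but those fits tested more of the 39 listed genes. The filter used the mean of the libraries in each fit, so a gene could enter through the line where it was high. These counts are therefore not comparable with the 6 and add no support to it. Of 33 Polycomb subunits, which silence developmental genes, 72.7% passed, near the 67.5% of all genes. Among the 33, 17 were higher and 7 lower, and all but Phc1 (1.14) differed by less than 1. That count fell to 8 higher and 5 lower after centring on chromosomes and to 11 or 12 higher with 1 library left out. Among the 19 members of the SUMO pathway, 10 passed as higher and 2 as lower, none by as much as 1. The 63.2% that passed was near the 67.5% of all genes.

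Imprinted genes, which are expressed from the allele of 1 parent, were lower on balance, 16 of 23, with 5 higher. Peg10 was at 3.56, 3.05, 1.96 and 2.13 FPKM in wild type and 49.7, 43.0, 30.3 and 22.04 FPKM in the null line (-3.30 ± 0.115, adjusted p = 3.88e-05), and Dlk1, Meg3, Rian and Mirg of a single imprinted cluster were lower together. The growth inhibitor Grb10 was higher, at 92.5, 107, 113 and 111 FPKM against 17.2, 20.8, 21.96 and 18.7 FPKM (2.37 ± 0.0505, adjusted p = 1.81e-05), as was Igf2. The lines did not overlap for Peg10 or Grb10.

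Xist, the noncoding RNA that silences an X chromosome in female cells, was at 2.75, 2.44, 2.27 and 1.79 FPKM in wild type and 51.3, 48.2, 48.8 and 46.8 FPKM in the null line (-3.92 ± 0.0681, adjusted p = 1.20e-05). The null libraries of the second set were at 34.4 and 34.7 FPKM, and the lines did not overlap. Its neighbour Ftx was lower too (-0.57), but did not pass with the null libraries of the second set in place (-0.26). Of 10 X-linked genes known to escape inactivation, 9 were lower and none higher, and Eif2s3x was at 60.4, 56.04, 58.7 and 59.4 FPKM against 130, 129, 123 and 129 FPKM (-1.11 ± 0.0411, adjusted p = 4.69e-05). With the null libraries of the second set in place, 6 of the list were lower and 1 higher. Genes of the X chromosome as a whole had a median of -0.0814. Of 11 listed X-inactivation and Y-linked genes, 2 were tested, Xist and Ftx. Whether the lines came from embryos of different sex was not tested.

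The differences also followed chromosomes. Of 10863 tested genes placed on 20 chromosomes by their RefSeq transcript (GRCm38.p6), the 944 on chromosome 11 had a median difference of 0.557, 686 of them higher in wild type (72.7%) and 96 lower (10.2%). The median was 0.532 to 0.584 in the 4 time-matched pairs. Chromosomes 2 (0.363), 6 (0.318), 8 (0.249), 10 (0.247), 13 (0.234) and 16 (0.185) had medians above that of all genes. Chromosome 14 had a median of -0.475, with 14 of 344 genes higher and 256 lower, and chromosome 3 of -0.419, with 42 of 525 higher and 333 lower. Rpl38 and Actg1 were examples on chromosome 11 (0.46 and 0.54, and -0.09 and -0.01 after centring on its median), and Tpt1, at 980 ± 23.6 and 2005 ± 46.9 FPKM, was one on chromosome 14 (-1.03). Hoxb6 and Hoxb9, on chromosome 11, stood against the median of their chromosome.

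With each gene centred on its mean and each library on its median, the chromosome medians of the wild-type and null libraries did not overlap for 19 of the 20 chromosomes, all but chromosome 1. For those 19 an exact two-sided permutation test gave p = 0.0286, or 0.0301 after Benjamini-Hochberg adjustment over the 20 chromosomes. It shuffled libraries without regard to time, and 0.0286 is the smallest p that 4 against 4 libraries allow. It did not keep the time-matched pairs, which allow fewer arrangements and so only a larger smallest p. The 4 libraries of a line are times of that line, so this p measures no spread among lines or embryos. Because each library was centred on its own median, the chromosomes are not independent, and one near the overall median can separate through the shifts of others: chromosomes 5 and 9, with differences of 0.0429 and 0.0502 before centring, separated in the opposite direction. Between libraries of a line at different times, the 120 chromosome medians ran from -0.0755 to 0.0694, and none was beyond 0.2. Between the null libraries of the second and first sets, the 40 medians ran from -0.0931 to 0.103. Between the second set's null cells reconstituted with wild-type Arkadia or the Ark-sim mutant and its null libraries, the 80 medians ran from -0.268 to 0.209 and 6 were beyond 0.2, all on chromosomes 19 (negative) and 10 (positive). Between lines, 27 of 80 were beyond 0.2, from -0.562 to 0.489.

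**Figure D4:**
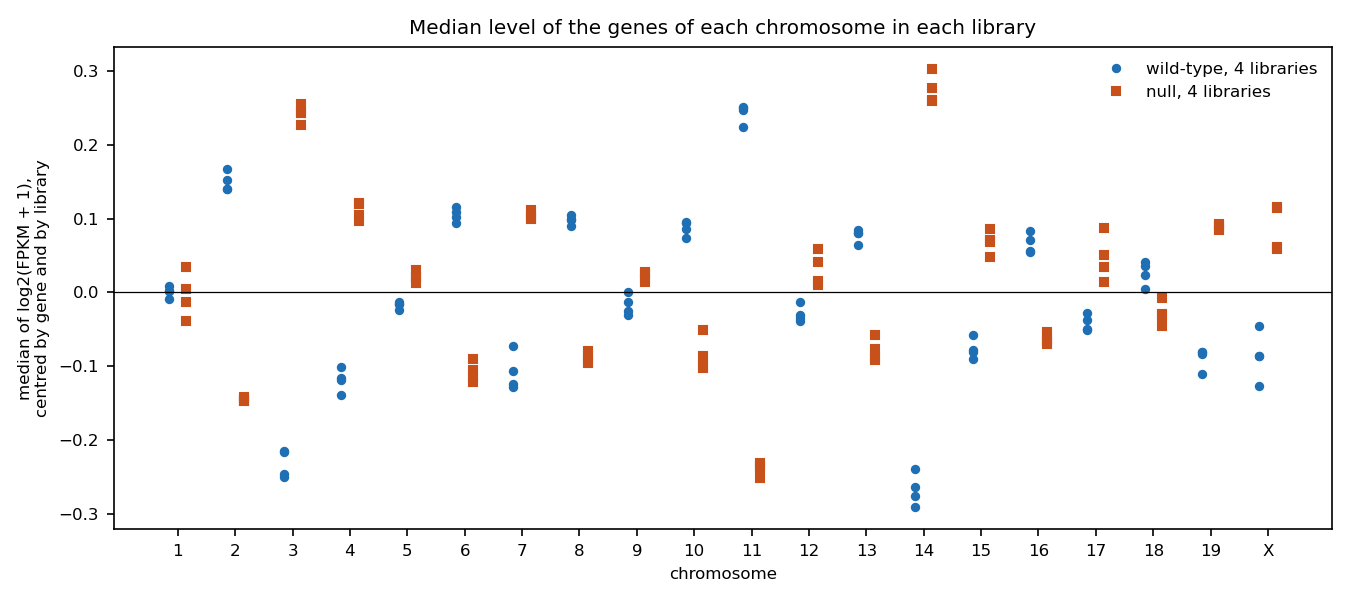
Median level of the genes of each chromosome in each library, with every gene centred on its mean and every library on its median (log2 scale); blue circles are the 4 wild-type and orange squares the 4 null libraries. The 4 libraries of a line lie together and the lines are furthest apart on chromosomes 11, 14, 3 and 2.

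On some chromosomes the difference had 1 direction along their length, and on others it did not. In runs of 40 neighbouring tested genes, 23 of 23 runs on chromosome 11 had a median above 0 (0.211 to 0.756), as did 21 of 21 on chromosome 2 (0.159 to 0.584). All 13 runs of chromosome 3 (-0.547 to -0.205) and all 8 of chromosome 14 (-0.645 to -0.375) were below 0. The runs of chromosomes 8, 10, 13 and 16 also all lay above 0. Other chromosomes had runs on both sides, among them chromosome 19 with 4 above and 6 below 0 (-0.377 to 0.332), chromosome 15 (-0.438 to 0.115), chromosome 7 (-0.383 to 0.142) and chromosome 6 (-0.112 to 0.519). Chromosome 4 lay below 0 but was uneven: its first 3 runs were at -0.59, -0.546 and -0.611 and the following 13 lay between -0.254 and -0.00575. When each gene was centred on the median of its chromosome, 6510 genes passed, 3200 higher and 3310 lower, against 4105 and 3306 without centring. This centring sets the typical difference of each chromosome to 0, so it fixes the balance of the directions, and median-ratio scaling, which uses no chromosomes, gave 3555 higher and 3700 lower. Chromosome number was not measured, and its part in these differences was not tested.

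**Figure D5:**
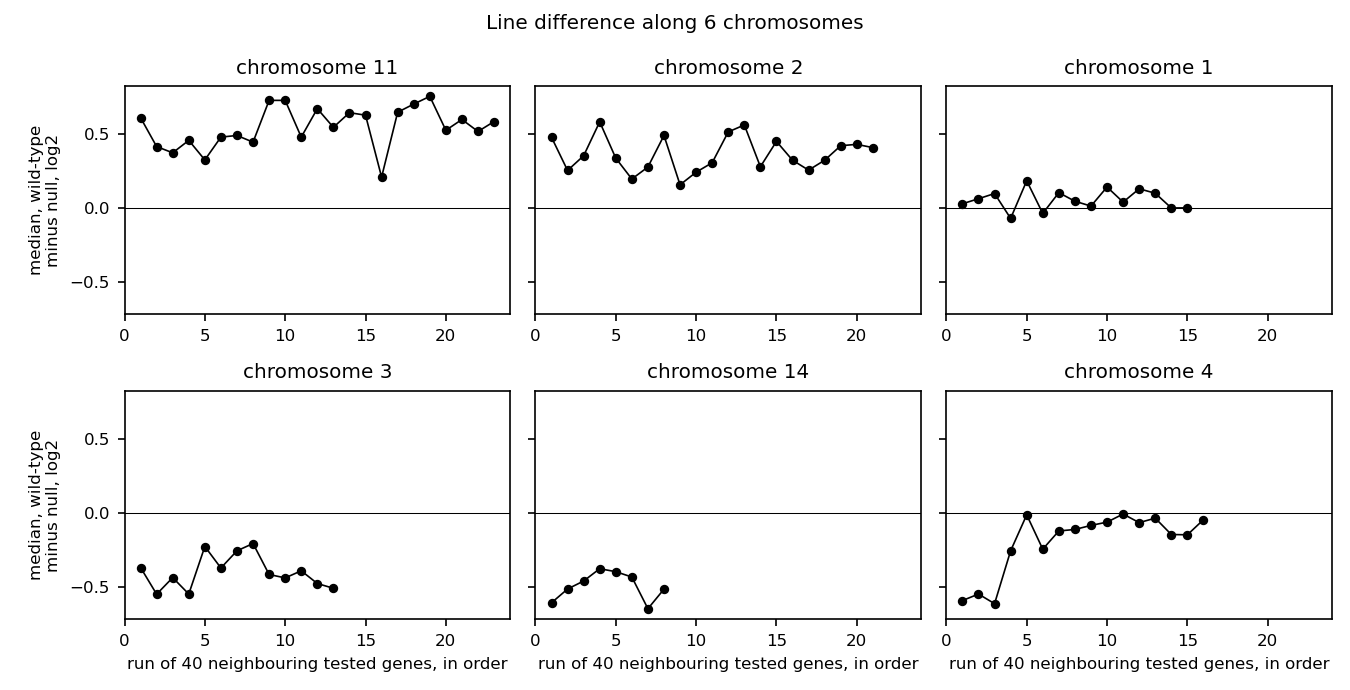
Median difference between the lines (wild type minus null, log2(FPKM + 1)) in successive runs of 40 neighbouring tested genes on chromosomes 11, 2, 1, 3, 14 and 4, ordered along each chromosome; a horizontal line marks 0. Runs of chromosomes 11 and 2 lie above 0 throughout and those of chromosomes 3 and 14 below 0, and the first 3 runs of chromosome 4 lie apart from the rest.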

How the data were processed

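Gene expression was measured by strand-specific poly(A) RNA-seq in 16 libraries, of which the 4 wild-type and 4 Arkadia-null libraries of the first set were compared. The authors deposited FPKM per gene, and the submitters' processing notes name mm9 as the build and Cufflinks 2.2.1, SAMtools, STAR 2.3.0e and CASAVA 1.8.2 as tools. The file holds no counts, so read depth and counting error are unknown, and a check of low values did not recover whole reads (78 of 309 genes fell on a common step). Values were taken as log2(FPKM + 1) for the 10976 of 12100 listed genes with a mean of at least 1 FPKM, and fitted with limma 3.58.1 (R 4.3.3, statmod 1.5.0; trended empirical Bayes, two-sided) on line with time as a block; Benjamini-Hochberg adjusted p below 0.05 counted as passed. The block matches libraries by the labelled time. Fits were tested on simulated data. Values after ± are SE for differences and SD over the 4 libraries of a line for levels.

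Members, the 48 gene lists and 11 marker lists were chosen with earlier results of these data known. Named genes were Rnf111, the 25 largest differences each way that passed, had 1 sign at all 4 times and reached a mean of 5 FPKM in the higher line (small RNAs and genes that drop out in a library left out), genes off in 1 line and on in the other, the members with the smallest p in each list (at most 4, plus a member that went against its list), and the 10 genes each way with the largest difference in mean FPKM among those that passed. A further 120 genes were named after their values were seen, and a few genes are not reported here. Alternatives were the pseudocount, the filter, scaling, the limma variant, the block, small RNAs, other null libraries and each library left out; centring on chromosome medians was chosen after seeing the data. Chromosomes and promoters come from RefSeq (GRCm38.p6), matched for 11969 rows.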

Additional observations from a re-analysis of the deposited data

Results flagged for a closer look

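In 735 groups of 4 libraries (a named gene in 1 line, groups below 0.5 FPKM left out), 34 had 1 library far from the other 3; chance alone puts about 1 group in 20 there, and the 4 libraries of a line differ in time with TGFβ. Of the 34, 22 lay at 16 h, 5 each at 0 h and 1 h and 2 at 4 h.

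In the 16 h null library the value was above the other null libraries for Ptprq (16.2 FPKM, others up to 12.2), Col8a1 (58.6 FPKM, others up to 28.1), H2-K1 (30.8 FPKM), Asns (167 FPKM, others up to 108), Cars (49.5 FPKM), Iars (80.8 FPKM), Slc7a11 (18.7 FPKM), Ltbp1 (33.8 FPKM) and Serpinh1 (931 FPKM, others up to 687). It was below them for Efemp2 (240.4 FPKM), Fbln1 (0.778 FPKM), Emilin2 (5.70 FPKM, others from 12.1), Gli2 (3.27 FPKM), Bcam (5.21 FPKM, others from 9.87), Msln (68.9 FPKM), Mt1 (48.8 FPKM, others from 151) and Thy1 (3.82 FPKM). In the 16 h wild-type library Asns (76.1 FPKM, others up to 49.3), Acta2 (957 FPKM, others up to 545), Map2 (4.97 FPKM) and Tmsb4x (2640 FPKM, others up to 1982) stood above the rest of their line and Adamts2 (0.162 FPKM) below. Asns stood apart in the same direction in both lines.

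At earlier times, the 0 h null library was high for 3830403N18Rik (14.8 FPKM) and low for Pdgfrb (12.1 FPKM, others from 20.1), and the 4 h null library was low for Eif2s3x (123 FPKM). The 0 h wild-type library was high for Foxa2 (22.0371 FPKM, others up to 10.4) and low for F11r (73.3 FPKM) and Wnt11 (5.12 FPKM, others from 12.1). The 1 h wild-type library was high for Nog (2.64 FPKM, others up to 0.633), Foxd1 (2.41 FPKM), Il6ra (1.32 FPKM) and Pdgfrb (9.02 FPKM) and low for Ifi204 (4.41 FPKM), and the 4 h one was low for Mt1 (17.1 FPKM, others from 24.2).

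Of 40 groups of chromosome medians, 3 held a library apart: chromosome 2 in the 16 h null library (-0.141, against -0.147 to -0.146), and in the 0 h wild-type library chromosome 11 (0.224, others from 0.247) and chromosome 19 (-0.111, others from -0.084). These gaps are small beside the difference between the lines on chromosomes 2 and 11.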

How the results depend on the processing

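The count of 7411 genes that passed stayed within 1.5 times under each alternative tried except a test against a difference of 1, and with any single library left out (6266 to 7343). Median-ratio scaling gave 3555 higher and 3700 lower, against 4105 and 3306, and centring on chromosome medians 3200 and 3310. That test (limma treat) left 604 genes. The rule with a size of at least 1, at 1336 genes, gave 1314 to 1377 with 1 library left out, 562 with a pseudocount of 5 and 799 with a mean of at least 5 FPKM, which tests fewer genes. The labels pair libraries by time: with no replicate block, that is without time as a block, 6756 genes passed, 6663 of them with the same sign as in the blocked fit. With the null libraries of the second set in place of the first, 5682 of the 7411 were called with the same sign. With time as a block, leaving out a library also removes what the other library of its time adds.

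Directions of named genes that reversed, with cause not tested, were these. After centring: Bmpr1a (0.0787), Smtn (-0.0528), Rpl38 (-0.0895), Actg1 (-0.00681), Ccna2 (0.0307) and Mars (-0.0517). With the second set's null libraries: Acvr2a (0.11), Uqcr11 (-0.37), Tmsb4x (-0.0445), Rpl38 (-0.0170), Bcam (-0.54), E2f2 (0.0643), Hif1a (0.35) and Tgfbr1 (0.31). Of these, Uqcr11, Bcam, Hif1a and Tgfbr1 passed in the reversed direction. Under quantile normalization: Vim (0.11). Of 3068 list counts compared with an alternative, 173 moved by more than 1.5 times. The filter on mean level used the libraries of each fit, so the list members tested can differ between alternatives. Depth is unknown, so counting error of weak genes could not be given.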

Other observations

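Several of the strongest differences fell outside the gene lists. Uchl1, a ubiquitin hydrolase abundant in neurons and gonads, was at 60.0, 65.9, 62.8 and 58.9 FPKM in the wild-type libraries at 0, 1, 4 and 16 h and at 4.67, 5.29, 4.79 and 8.30 FPKM in the null ones (3.25 ± 0.146, limma adjusted p = 7.39e-05). The LIM-domain protein Crip2 (47.3 ± 10.99 against 2.55 ± 0.563 FPKM, 3.75), the inhibitory G protein subunit Gnai1 (22.8 ± 5.07 against 1.32 ± 0.215 FPKM, 3.34) and Sprr1a, a precursor of the cornified envelope (22.5 ± 3.28 against 2.02 ± 1.25 FPKM, 3.05), were higher in wild type as well. Fxyd6, a regulator of the sodium pump, went the other way, below 0.21 FPKM in each wild-type library and at 22.4, 24.4, 35.4 and 76.7 FPKM in the null line (-5.01 ± 0.306, limma adjusted p = 0.000148). Tm4sf1, a tetraspanin-like surface protein, was at 8.61 ± 2.54 against 139 ± 23.8 FPKM (-3.89). No library of either line overlapped the other line for these 6 genes, as for 55.7% of the genes tested. The 6 were chosen for the size of their difference, so this is no separate support.

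Among the most abundant transcripts, Lgals1 (galectin-1, 1722 ± 72.5 against 3195 ± 475 FPKM, -0.88), the iron-storage subunit Fth1 (802 ± 120 against 1818 ± 479 FPKM, -1.15), the phospholipid-binding protein Anxa1 (-0.95) and the calcium-binding protein S100a6 (1443 ± 218 against 2210 ± 234 FPKM, -0.62) were lower in wild type. The prolactin-family genes Prl2c2 and Prl2c4 were lower by more than 4, but they are near-identical copies between which the counting may have divided reads. Both were weaker in the null libraries of the second set, where Prl2c4 was at 6.59 and 12.98 FPKM at 0 and 1 h against 78.9 and 81.9 FPKM in the first set, and with those libraries in place Prl2c4 did not pass (-2.46). Eif4a1, a translation initiation factor, was at 972 ± 18.4 and 598 ± 21.0 FPKM in the lines (0.70) and was listed at 0 in both null libraries of the second set, so a value of 0 in these files need not mean that a gene was silent.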
